A study of Mus musculus with 12 samples.

Results

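Aminoacyl-tRNA synthetases attach each amino acid to its transfer RNA, the step that supplies ribosomes with charged tRNA. The synthetase genes were taken by symbol (a single-letter amino acid code followed by ars, with Farsa, Farsb and Eprs), and each gene was read from its probe set of highest mean level. This gave 32 genes of the 17097 that had a probe set naming only that gene, of which 17 encode cytosolic enzymes and 15, with symbols ending in 2, mitochondrial enzymes. In the mouse, 1 gene can serve both compartments, as Gars and Kars do, and these were counted as cytosolic. The genes Cars, Dars, Tars and Yars2 were not analysed here.

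The study ran 12 Affymetrix mouse arrays, 3 for each of 4 groups. All macrophages were grown from C57BL/6 bone marrow and co-cultured, with no further treatment, with spheres of the TT9423 mouse neuroblastoma line. The groups were CD11b+ macrophages taken from inside the spheres after 24 h, macrophages of those cultures outside the spheres after 24 h, CD11b+ macrophages from inside the spheres after 48 h, and macrophages outside them after 48 h. Each replicate was an independent experiment that pooled macrophages from several wells. Spheres were digested with enzymes and the cells selected on CD11b columns, and the sources used here do not say whether outside cells went through the same steps. The protocol text on every sample, including those labelled 48 h, describes a co-culture of 24 h. A single tumour line, grown on agar, stands for the tumour.

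As background, cells short of an amino acid accumulate uncharged tRNA, which activates the kinase GCN2 and raises translation of the transcription factor ATF4. ATF4 is known to induce many cytosolic synthetase genes together with genes of amino acid synthesis and uptake, and MYC is known to raise genes of ribosome production and growth. Several cytosolic synthetases sit in a multi-synthetase complex held by scaffold proteins, while mitochondrial synthetases are encoded in the nucleus by separate genes and charge tRNA for the few proteins made inside the organelle.

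Values are log2 expression after RMA normalisation. A gene was tested if it exceeded 2.77, the 40th percentile of all values, on at least 3 arrays, which 12488 genes did. Of the 32 synthetase genes 31 were tested. Mars2, the mitochondrial methionine enzyme, exceeded that level on 0 of 12 arrays, with values between 2.01 and 2.37, and is described no further. Differences are in-sphere minus outside with standard errors (SE, 3 arrays in each group) from a limma fit to all 12 arrays, and a gene is called when its p-value, adjusted by Benjamini-Hochberg over all tested genes, lies below 0.05.

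Array medians lay between 3.03 and 3.17, and the third in-sphere 48 h array had the lowest mean, 4.06, against 4.20 to 4.22 on the other 11. At 24 h the beta-actin probe sets gave a larger 3' minus 5' difference, a sign of RNA degradation or labelling length, on in-sphere arrays (0.49, 0.35 and 0.60) than on outside arrays (0.31, 0.32 and 0.22). At 48 h it was 0.39 to 0.42 in spheres and 0.37 to 0.40 outside. The same difference for Gapdh overlapped at 24 h, at -0.12, 0.17 and 0.43 in spheres and 0.03, 0.17 and -0.04 outside. At 48 h the Gapdh difference was 0.11 to 0.15 in spheres and 0.05 to 0.10 outside. Of 10 macrophage markers on the array, 9 exceeded the filter level on every array, and their mean level was 9.29 to 9.68 in spheres and 9.16 to 9.52 outside at 24 h, and 9.62 to 9.68 in spheres and 9.34 to 9.59 outside at 48 h. Of these 9, 2 were called higher and 2 lower at 24 h, and 3 higher (among them Cd14 and Mrc1) and 2 lower (Mertk and Cd68) at 48 h. CD11b itself (Itgam) differed by 0.15 ± 0.25 at 24 h and 0.56 ± 0.25 at 48 h, without being called.

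Some markers of other cells moved with the groups. Mean levels of 15 neuroblastoma and neural markers were 3.22 to 3.37 in spheres and 2.93 to 3.03 outside at 24 h. They were 3.25 to 3.31 in spheres and 2.78 to 2.83 outside at 48 h. Of 11 tested markers 2 (Gap43 and Ncam1) were called higher at 24 h and 3 at 48 h. The median difference of the 11 was -0.02 at 24 h and -0.01 at 48 h, with 5 above 0 and 6 below at each time. Ncam1 was 0.99 ± 0.20 higher at 24 h and 1.64 ± 0.20 higher at 48 h. The neuronal growth gene Gap43 was 3.99 ± 0.30 higher at 24 h and 4.41 ± 0.30 higher at 48 h, while the sympathetic gene Th stayed close to the filter level, at 3.02 in spheres and 3.07 outside at 24 h and 2.72 in spheres and 2.88 outside at 48 h. Mycn, the driver gene of many neuroblastomas, read 3.16 in spheres and 3.25 outside at 24 h. At 48 h it read 3.34, 3.31 and 4.30 in spheres and 2.67, 3.26 and 3.11 outside, a difference of 0.64 ± 0.25 with no overlap that was not called (limma adjusted p = 0.0611). Of the 15 neural markers, 6 in spheres and 5 outside did not exceed the filter level on any array of their group at 24 h. Means of 8 fibroblast markers were 5.15 to 5.84 in spheres and 4.12 to 4.67 outside at 24 h. At 48 h they were 5.52 to 5.72 in spheres and 3.97 to 4.86 outside. Of the 8, 4 were called higher at 24 h (Col3a1, Dcn, Thy1 and Pdgfra) and 5 at 48 h (those and Col1a2). The collagen gene Col3a1 was 2.64 ± 0.31 higher at 24 h and 3.28 ± 0.31 higher at 48 h. Another collagen gene, Col1a1, was called lower at both times. The 24 h call of Col1a1 (limma adjusted p = 0.0452) was not firm. Among other losses, it went without any in-sphere 24 h array (0.0669, 0.132 and 0.0839) or the second outside 24 h array (0.145). Means of 8 granulocyte markers were 9.35 to 10.23 in spheres and 10.65 to 11.11 outside at 24 h, and 8.68 to 9.59 in spheres and 10.14 to 10.66 outside at 48 h, with 6 of the 8 called lower at each time. The part of these cells, and of the beta-actin difference at 24 h, in the synthetase results was not tested. In such bulk samples fewer cells of a type and less RNA per cell cannot be told apart.

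At 24 h most cytosolic synthetase genes were higher in macrophages inside the spheres. Of 17 tested, 10 were called higher, 1 lower and 6 were not called, while 15.8% of all tested genes were called higher and 13.6% lower (29.4% either way). The median difference of the 17 was 0.42, with a range of -0.62 to 1.46, against a median of -0.01 over all tested genes, and 16 of the 17 lay above 0. The in-sphere and outside arrays did not overlap for 13 of the 17, as for 43.4% of all tested genes.

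The largest difference belonged to Vars, the valine enzyme. It read 4.98, 4.88 and 5.05 in spheres at 24 h, against 3.62, 3.77 and 3.13 outside. Every in-sphere array lay above every outside array, and the difference was 1.46 ± 0.22, or 2.76-fold (limma adjusted p = 0.000402). Kars, the lysine enzyme of both compartments, read 8.88, 8.72 and 8.64 in spheres and 7.78, 7.72 and 7.73 outside. These groups were tight and far apart, at 1.00 ± 0.11, or 2.00-fold (limma adjusted p = 4.48e-05). Sars, the serine enzyme, read 8.74, 8.44 and 8.44 in spheres and 7.74, 7.71 and 7.46 outside, again with no overlap, a difference of 0.91 ± 0.13 (limma adjusted p = 0.000283). Iars, the isoleucine enzyme and a member of the complex, read 8.94, 8.69 and 8.58 in spheres and 8.02, 7.85 and 7.86 outside. The groups did not overlap and differed by 0.82 ± 0.13 (limma adjusted p = 0.000546). These 4 genes kept their calls when any single array was left out.

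Gars, the glycine enzyme of both compartments, read 9.10, 8.86 and 8.82 in spheres and 8.40, 8.40 and 8.30 outside at 24 h. The groups were separate, at 0.56 ± 0.11 (limma adjusted p = 0.00252). Aars, the alanine enzyme, read 8.13, 7.85 and 7.91 in spheres and 7.62, 7.34 and 7.25 outside, a difference of 0.56 ± 0.14 without overlap (limma adjusted p = 0.00893). Yars, the tyrosine enzyme, read 7.03, 6.62 and 6.63 in spheres and 6.27, 6.20 and 6.19 outside, so the first experiment was highest. Its difference of 0.54 ± 0.17 (limma adjusted p = 0.0321) lost its call without the first in-sphere 24 h array, at 0.40 with an adjusted p of 0.126, and without any of the 3 outside 24 h arrays, with adjusted p of 0.0632 to 0.0826.

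The remaining 3 genes called higher at 24 h belong to the multi-synthetase complex. Eprs, which joins the glutamate and proline enzymes in 1 protein, read 8.78, 8.17 and 8.31 in spheres and 7.98, 7.98 and 7.71 outside, a difference of 0.53 ± 0.15 (limma adjusted p = 0.0179). Mars1, the methionine enzyme, read 7.51, 7.37 and 7.56 in spheres and 7.17, 7.05 and 6.94 outside, a difference of 0.42 ± 0.12 (limma adjusted p = 0.0216). Rars, the arginine enzyme, read 9.22, 8.99 and 9.04 in spheres and 8.75, 8.72 and 8.77 outside, a difference of 0.34 ± 0.10 (limma adjusted p = 0.0256). None of the 3 overlapped between groups, but their calls were less firm. Eprs lost its call without the first in-sphere 24 h array (limma adjusted p = 0.0543) or the third outside 24 h array (0.076). Mars1 lost it without the first or the third in-sphere 24 h array (0.0547 and 0.062) or the second or the third outside 24 h array (0.055 and 0.0812). Rars lost it without the first in-sphere 24 h array (0.0798) or any outside 24 h array (0.0682, 0.0723 and 0.0521). With arrays centred on their medians, or with only the arrays compared, Eprs (0.0569 and 0.0652) and Rars (0.174 and 0.0747) were not called, and the count of cytosolic genes called higher was 8 in each case. Without the first in-sphere 24 h array the count of cytosolic genes called higher was 6, in place of 10.

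Nars, the asparagine enzyme, went the other way at 24 h. It read 8.49, 8.67 and 8.37 in spheres and 9.26, 8.77 and 9.36 outside, with no overlap although the second pair of arrays was close. The difference was -0.62 ± 0.16, or 0.652-fold (limma adjusted p = 0.0109), and without the third outside 24 h array it was -0.50 with an adjusted p of 0.0502. Among the 6 cytosolic genes that were not called, Farsa (a phenylalanine subunit), Hars (histidine) and Lars (leucine) differed by 0.38, 0.36 and 0.35 with limma adjusted p of 0.0683, 0.061 and 0.0677. Lars was called at 0.0373 with the replicate block, which takes the experiment number into the fit. The others were Wars (tryptophan) at 0.31, Farsb (the other phenylalanine subunit) at 0.18 and Qars (glutamine) at 0.05.

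**Figure D1:**
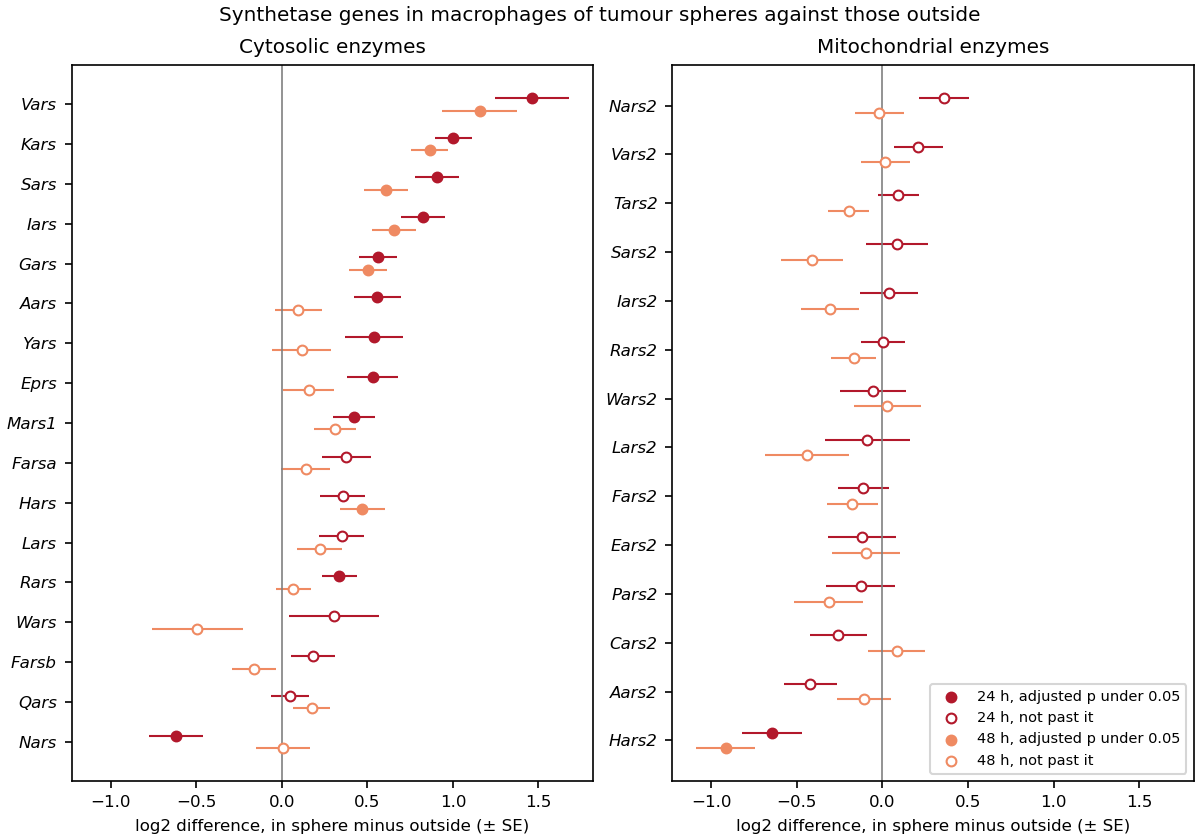
Log2 differences of the 31 tested synthetase genes, in-sphere minus outside, with cytosolic enzymes in the left panel and mitochondrial enzymes in the right. Points are limma estimates at 24 h and 48 h, bars are ± 1 SE, and filled points have an adjusted p under 0.05. Cytosolic genes lie mostly right of 0, up to 1.46 for Vars, and the mitochondrial genes lie around or left of 0, down to -0.92 for Hars2 at 48 h.

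Sequence upstream of these genes was read from RefSeq promoter windows of mouse build GRCm38.p6, 250 bases before to 50 bases after the annotated start. Windows were held for 24 of the synthetase genes, 11 cytosolic and 13 mitochondrial. The letters TGATGNAA, the core of the C/EBP-ATF response element that ATF4 binds, were searched on both strands and lay in 4 of the 11 cytosolic windows and in 0 of the 13 mitochondrial ones, against 4.51% of 27025 genes with a window. The 4 genes were Aars, Gars, Iars and Yars, all called higher at 24 h, and the 4 other genes called higher that had a window, among them Kars, held no match. The 3 remaining cytosolic windows held 0 matches. The letters CACGTG, the E-box that MYC binds, lay in 3 of 11 cytosolic windows (Aars, Farsb and Iars) and in 1 of 13 mitochondrial windows (Ears2), against 8.09% of genes. No match overlapped another. A match in letters is a description of the window and no evidence of binding. The 4 windows with the TGATGNAA core are printed because they belong to genes called higher in spheres at 24 h, and that of Kars as a strongly higher gene without it. Each is written 5′ to 3′ on the gene's strand, with matches to either motif in capitals. The Aars window lies at chr8:111033592-111033891 (plus strand), Gars at chr6:55037751-55038050 (plus), Iars at chr13:49681880-49682179 (plus), Yars at chr4:129189653-129189952 (plus) and Kars at chr8:112011305-112011604 (minus).
Aars: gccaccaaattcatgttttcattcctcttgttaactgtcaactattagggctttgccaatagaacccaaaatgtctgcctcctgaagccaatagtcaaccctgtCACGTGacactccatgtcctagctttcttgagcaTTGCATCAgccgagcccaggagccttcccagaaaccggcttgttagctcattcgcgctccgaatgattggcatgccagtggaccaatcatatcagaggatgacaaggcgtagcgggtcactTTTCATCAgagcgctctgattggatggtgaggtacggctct
Gars: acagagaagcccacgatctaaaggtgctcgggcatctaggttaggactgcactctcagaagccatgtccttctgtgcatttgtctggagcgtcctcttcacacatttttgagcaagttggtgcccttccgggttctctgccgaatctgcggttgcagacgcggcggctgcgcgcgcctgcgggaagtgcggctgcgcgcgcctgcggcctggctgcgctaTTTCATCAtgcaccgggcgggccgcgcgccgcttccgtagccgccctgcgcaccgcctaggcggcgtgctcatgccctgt
Iars: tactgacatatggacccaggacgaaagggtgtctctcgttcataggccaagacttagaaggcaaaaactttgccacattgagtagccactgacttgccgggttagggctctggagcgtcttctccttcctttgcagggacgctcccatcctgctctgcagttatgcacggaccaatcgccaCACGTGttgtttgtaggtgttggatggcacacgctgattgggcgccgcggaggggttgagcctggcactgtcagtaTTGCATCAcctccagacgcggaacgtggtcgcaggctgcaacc
Yars: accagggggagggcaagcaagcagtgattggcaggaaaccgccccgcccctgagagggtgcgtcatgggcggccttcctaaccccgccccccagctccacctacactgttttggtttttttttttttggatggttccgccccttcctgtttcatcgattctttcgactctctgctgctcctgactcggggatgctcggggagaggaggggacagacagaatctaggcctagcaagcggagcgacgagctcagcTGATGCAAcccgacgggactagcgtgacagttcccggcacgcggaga
Kars: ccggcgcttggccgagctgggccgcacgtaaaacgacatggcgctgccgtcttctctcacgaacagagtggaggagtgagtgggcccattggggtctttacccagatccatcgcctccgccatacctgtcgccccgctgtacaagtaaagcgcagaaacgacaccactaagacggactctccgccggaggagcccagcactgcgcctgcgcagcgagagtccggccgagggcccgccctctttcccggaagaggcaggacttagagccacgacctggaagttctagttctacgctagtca

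The Aars window held the TGATGNAA core at 2 places, both on the opposite strand, 1 beginning 112 bases before the start and 1 beginning 9 bases after it, besides an E-box 146 bases before. Gars held 1 core 30 bases before its start. Iars held 1 core 7 bases after its start and an E-box 69 bases before it, and Yars held 1 core 3 bases after its start. The Kars window overlapped by 104 bases that of Terf2ip, a telomere protein gene on the opposite strand, and the Yars window overlapped by 74 and 177 bases the 2 windows of S100pbp, also on the opposite strand.

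By 48 h fewer cytosolic enzymes passed the test, and those that did were mostly the same genes. Of 17, 6 were called higher and 0 lower, against 15.2% and 22.3% of all tested genes (37.5% either way), and 5 of the 6 had also been called higher at 24 h. The median difference was 0.18 (range -0.49 to 1.16), against -0.10 over all tested genes, and 15 of 17 lay above 0. Arrays did not overlap for 7 of the 17, as for 51.6% of all tested genes. Array medians over tested genes were 0.12 lower in spheres than outside at 48 h, and with each array centred on that median the cytosolic median was 0.29. Without the third in-sphere 48 h array it was 0.27, against -0.02 over all tested genes.

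Vars read 5.37, 4.98 and 4.47 in spheres at 48 h and 3.98, 3.58 and 3.79 outside. The third in-sphere array was the lowest but still above all outside arrays, and the difference was 1.16 ± 0.22, or 2.23-fold (limma adjusted p = 0.00133). Kars read 8.57, 8.41 and 8.45 in spheres and 7.52, 7.58 and 7.73 outside, a difference of 0.86 ± 0.11 (limma adjusted p = 7.84e-05). Iars read 8.90, 8.77 and 8.64 in spheres and 8.17, 7.95 and 8.22 outside, a difference of 0.66 ± 0.13 (limma adjusted p = 0.00178). Neither gene overlapped between groups. Sars read 8.69, 8.40 and 8.59 in spheres and 7.99, 7.91 and 7.95 outside, a difference of 0.61 ± 0.13 (limma adjusted p = 0.00274). Gars read 8.81, 8.82 and 8.71 in spheres and 8.38, 8.19 and 8.25 outside, a difference of 0.51 ± 0.11 (limma adjusted p = 0.00356). Both were again separate, and the calls of these 5 genes held when any single array was left out.

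Hars, the histidine enzyme, was the sixth gene called at 48 h. It read 7.91, 7.79 and 7.59 in spheres and 7.38, 7.18 and 7.32 outside, a difference of 0.47 ± 0.13 (limma adjusted p = 0.0145). At 24 h its arrays were also separate, at 7.66, 7.86 and 7.54 in spheres and 7.31, 7.19 and 7.49 outside, short of the threshold. The 48 h call was lost without the first in-sphere 48 h array (limma adjusted p = 0.0552) or the second outside 48 h array (0.0596).

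The other enzymes called at 24 h were closer to 0 at 48 h. Mars1 differed by 0.31 (limma adjusted p = 0.067, and 0.0303 without the third in-sphere 48 h array). Aars read 7.86, 7.80 and 7.74 in spheres and 7.82, 7.47 and 7.81 outside at 48 h, with a difference of 0.10, and Yars read 6.67, 6.52 and 6.00 in spheres and 6.23, 6.20 and 6.41 outside, with a difference of 0.12. The groups overlapped for both genes. Eprs differed by 0.16 and Rars by 0.07. Nars lay between 8.92 and 9.02 in spheres at 48 h and read 9.15, 8.81 and 8.97 outside, an overlap, with a difference of 0.01 ± 0.16. Wars, which interferon is known to induce, differed by -0.49 ± 0.26 (limma adjusted p = 0.165), with 4.91, 4.91 and 3.91 in spheres and 5.34, 4.84 and 5.03 outside.

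**Figure D2:**
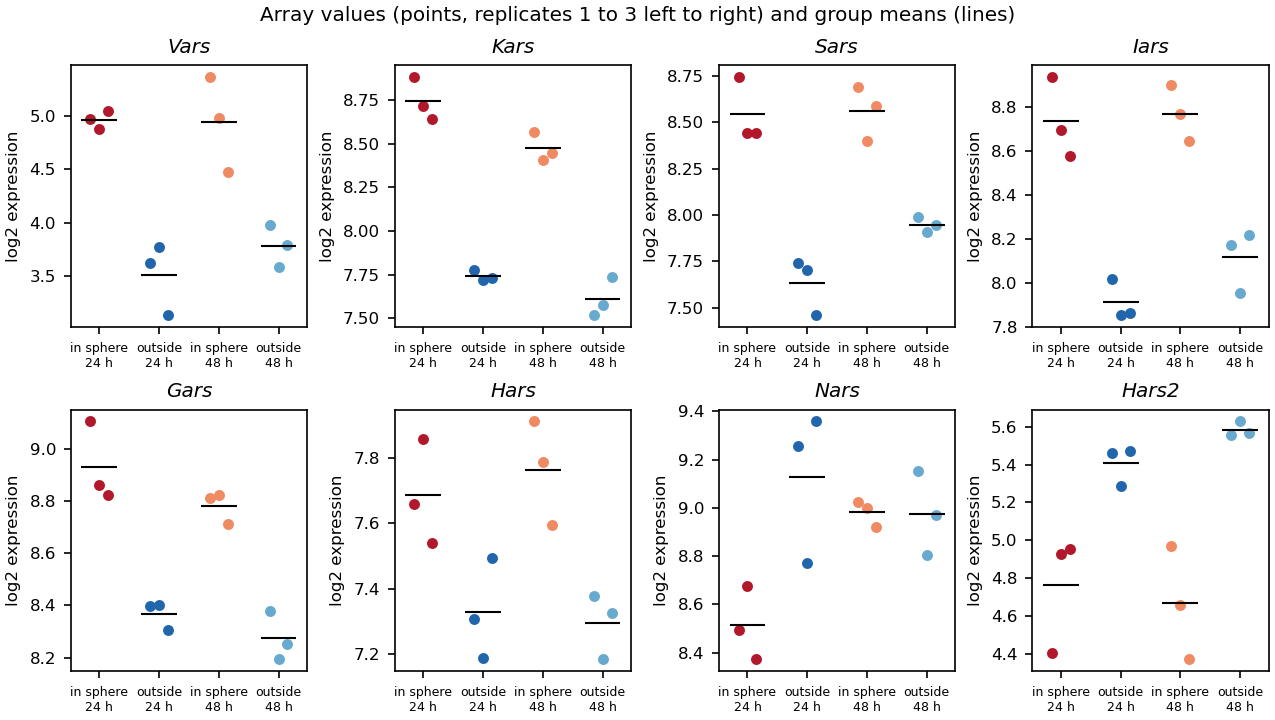
Log2 values of 8 synthetase genes on each of the 12 arrays, 1 panel a gene, with in-sphere left of outside at 24 h and at 48 h. Points are arrays and lines are group means. For Vars, Kars, Sars, Iars and Gars every in-sphere array lies above every outside array at both times, and for Hars2 every in-sphere array lies below.

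The mitochondrial synthetases did not follow the cytosolic ones. Of 14 tested, 0 were called higher and 1 lower at 24 h, and 0 higher and 1 lower at 48 h. Of all tested genes 15.8% were called higher and 13.6% lower at 24 h, and 15.2% and 22.3% at 48 h. At an unadjusted limma p under 0.05 there were 3 at 24 h (Hars2, Aars2 and Nars2) and 2 at 48 h (Hars2 and Sars2), where 39.4% and 46.0% of all tested genes passed. The median difference was -0.07 at 24 h (range -0.65 to 0.36, 6 above 0 and 8 below) and -0.17 at 48 h (range -0.92 to 0.08, 3 above 0 and 11 below). Of all 12488 tested genes 6338 lay below 0 at 24 h and 7442 at 48 h. The 24 h median turned to 0.03 without the third outside 24 h array, 0.03 with the mean of all probe sets a gene has and 0.01 with array weights. The 48 h median was -0.05 without the third in-sphere 48 h array. Centred on array medians it was -0.13 at 24 h and -0.05 at 48 h. Arrays of the groups did not overlap for 3 of the 14 genes at either time, as for 43.4% of all tested genes at 24 h and 51.6% at 48 h. The 14 genes were also dimmer as a class. Their mean levels over the 12 arrays ran from 2.82 (Sars2) to 7.10 (Rars2), against 4.30 (Vars) to 8.92 (Rars) for cytosolic genes. RMA compresses the differences of dim probe sets, and the part of level in the contrast of the classes was not tested.

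Hars2, the mitochondrial histidine enzyme, was the gene called lower at both times. At 24 h it read 4.40, 4.93 and 4.95 in spheres and 5.46, 5.29 and 5.47 outside, a difference of -0.65 ± 0.17, or 0.639-fold (limma adjusted p = 0.0137). The first in-sphere array was the lowest, and without it the difference was -0.47 with a limma adjusted p of 0.0551. At 48 h it read 4.97, 4.66 and 4.37 in spheres and 5.56, 5.63 and 5.56 outside, with no overlap and a difference of -0.92 ± 0.17, or 0.529-fold (limma adjusted p = 0.00132). That call held when any single array was left out. Hars and Hars2 are next to each other in the RefSeq annotation, on chromosome 18, and moved in opposite directions.

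Aars2, the mitochondrial alanine enzyme, read 4.24, 4.25 and 4.23 in spheres and 4.93, 4.68 and 4.36 outside at 24 h. The groups were separate, but the difference of -0.42 ± 0.16 was not called (limma adjusted p = 0.063, and 0.0204 without the third outside 24 h array). Nars2, the mitochondrial asparagine enzyme, read 5.21, 5.26 and 5.25 in spheres and 4.92, 4.79 and 4.93 outside at 24 h. It differed by 0.36 ± 0.15, also separate and not called (limma adjusted p = 0.084, and 0.0209 without the third in-sphere 48 h array). Sars2, the mitochondrial serine enzyme, lay near the filter level and differed by -0.41 ± 0.18 at 48 h (limma adjusted p = 0.095, and 0.0456 without the third in-sphere 48 h array). The remaining mitochondrial enzymes differed by -0.26 (Cars2) to 0.21 (Vars2) at 24 h and by -0.44 (Lars2) to 0.08 (Cars2) at 48 h.

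Array by array, the gap between the classes was seen in every in-sphere experiment. Each array was set against the mean of the outside 24 h arrays, gene by gene, and the median over the mitochondrial genes was taken from the median over the cytosolic genes. This gave 0.62, 0.38 and 0.45 in spheres at 24 h and 0.05, 0.09 and -0.10 outside. At 48 h it gave 0.46, 0.36 and 0.54 in spheres and 0.06, 0.03 and 0.03 outside. On every array inside the spheres the gap was thus above that on every array outside. The cytosolic median itself was 0.50, 0.40 and 0.42 in spheres and 0.09, -0.02 and -0.04 outside at 24 h, and 0.43, 0.30 and 0.23 in spheres and 0.21, -0.02 and 0.13 outside at 48 h. On the third in-sphere 48 h array the median over all tested genes was -0.24 and that of the mitochondrial enzymes -0.31. Taken over the fitted differences, the cytosolic median exceeded the mitochondrial one by 0.49 at 24 h and 0.35 at 48 h, and by 0.38 to 0.55 and 0.31 to 0.42 when each array was left out in turn. These are descriptions of the listed genes with no test.

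**Figure D3:**
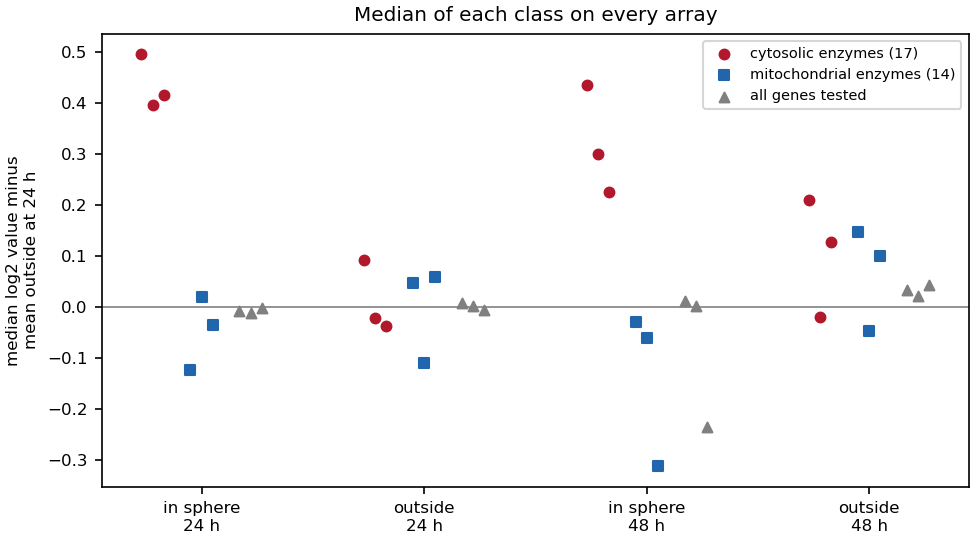
Median log2 value of the 17 cytosolic and of the 14 tested mitochondrial synthetase genes on each array, relative to the mean of the outside 24 h arrays. Each point is an array, with in-sphere left of outside at each time and grey triangles for the median of all tested genes. Cytosolic medians lie between 0.23 and 0.50 inside the spheres, and mitochondrial medians between -0.31 and 0.02.

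The same contrast was made within amino acids. There were 13 pairings of a cytosolic and a mitochondrial gene for the same amino acid, in which Eprs and Fars2 each served 2 times, so the pairings are not independent. The cytosolic difference was the more positive in 12 of 13 pairings at 24 h, by a median of 0.65, and in 12 of 13 at 48 h, by a median of 0.31. Within-array values of the groups did not overlap for 9 of these 12 at 24 h and 6 of 12 at 48 h. They also did not overlap for 1 pairing in the other direction at each time. Of single tested genes 43.4% did not overlap at 24 h and 51.6% at 48 h. No such share was computed for pairs of genes, so these counts have no background of their own. At 48 h the gap was only 0.01 for Farsb against Fars2 and 0.02 for Nars against Nars2. The widest gap was for valine at 24 h, where Vars exceeded Vars2 by 1.25, and for histidine at 48 h, where Hars exceeded Hars2 by 1.39. The exceptions were asparagine at 24 h, at -0.98, and tryptophan at 48 h, at -0.52. Leaving out Gars and Kars, which serve both compartments, 8 of 15 cytosolic genes were called higher at 24 h and 4 of 15 at 48 h, with medians of 0.38 and 0.16. Of all tested genes 15.8% and 15.2% were called higher, with medians of -0.01 and -0.10.

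Enzymes of the multi-synthetase complex were set beside the free cytosolic enzymes. At 24 h 5 of the 7 complex enzymes (Kars, Iars, Eprs, Mars1 and Rars) were called higher with a median of 0.42, and 5 of 10 others with a median of 0.46. At 48 h the counts were 2 of 7 and 4 of 10, with medians of 0.22 and 0.13. Of all tested genes 15.8% were called higher at 24 h and 15.2% at 48 h. The 48 h median of the 10 others was 0.25 without the third in-sphere array and 0.06 without the second outside array. The count of 5 was 2 without the first in-sphere 24 h array, 2 without the third outside 24 h array and 3 without the second outside 24 h array.

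Scaffold genes of the complex were also called higher. Aimp2, a scaffold protein that binds Kars, read 8.49, 7.73 and 7.64 in spheres and 6.76, 6.84 and 6.87 outside at 24 h, and 7.98, 7.86 and 7.65 in spheres and 6.97, 6.68 and 6.81 outside at 48 h. The groups were well apart at both times, with differences of 1.13 ± 0.20 (limma adjusted p = 0.00107) and 1.01 ± 0.20 (0.00156). Eef1e1, a smaller scaffold component, was 0.60 ± 0.16 higher at 24 h and 0.56 ± 0.16 at 48 h (limma adjusted p = 0.0149 and 0.0162). The first call was lost without the first or second in-sphere 24 h array (0.0638 and 0.0592) and the second without the first in-sphere or first outside 48 h array (0.0509 and 0.065). Aimp1, the third scaffold protein, differed by 0.33 ± 0.13 at 24 h (limma adjusted p = 0.0761) and 0.40 ± 0.13 at 48 h (0.0301, and 0.121 without the second outside 48 h array).

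Xpot, the exporter that carries tRNA out of the nucleus, read 8.83, 8.70 and 8.63 in spheres and 7.98, 7.83 and 7.86 outside at 24 h, a difference of 0.83 ± 0.10 (limma adjusted p = 9.52e-05), and was 0.59 ± 0.10 higher at 48 h (0.000666). Prorsd1, a relative of the bacterial domain that removes alanine from proline tRNA, fell by 0.43 at 24 h and by 0.67 at 48 h (limma adjusted p = 0.00703 and 0.000315). Of the 11 tested genes listed as accessories of charging, 3 were called higher and 1 lower at 24 h with a median of 0.21, and 4 higher and 1 lower at 48 h with a median of 0.12. Of all tested genes 15.8% were called higher and 13.6% lower at 24 h, and 15.2% and 22.3% at 48 h. When each array was left out the medians ran from 0.18 to 0.35 (without the third in-sphere 24 h array) and from 0.04 (without the second outside 48 h array) to 0.29 (without the third in-sphere 48 h array). The 48 h count of 4 was 2 without the first in-sphere 48 h array.

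Time alone called no synthetase gene. Between 48 h and 24 h, 0 of 31 were called inside the spheres and 0 outside, as were 0.0% and 0.336% of all tested genes by limma. At an unadjusted p under 0.05 there were 3 inside (Kars, Nars and Tars2) and 3 outside (Farsb, Nars2 and Sars), against 10.7% and 10.8% of all genes. The change of the in-sphere difference from 24 h to 48 h was tested directly, and 0 of 31 genes, as 0.0% of all genes, were called (lowest limma adjusted p among the synthetases 0.299). At an unadjusted p under 0.05 there were 2, Aars at -0.46 and Nars at 0.62, against 12.3% of all genes. The change was below 0 for 24 of 31 genes, and for 8051 of all 12488 tested genes. Its medians were -0.24 for cytosolic and -0.19 for mitochondrial enzymes and -0.11 over all genes. That Aars, Yars, Eprs and Rars were called at 24 h and not at 48 h is thus no tested difference between the times.

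Other probe sets for the same genes served as a second reading. The 32 genes had 25 further probe sets, 22 of them above the filter level, of which 16 had the sign of the one used at 24 h and 14 at 48 h. Among further sets of called genes, 8 of 8 at 24 h and 3 of 3 at 48 h had the same sign. Several of the 8 belonged to Eprs, and the 3 to Iars, Sars and Hars2. The called genes Vars, Kars, Gars, Hars, Mars1, Rars and Yars had 1 probe set each, so no second reading exists for them. The second Iars set differed by 1.23 at 24 h and 0.64 at 48 h, and the second Sars set by 0.82 and 0.49. The second Hars2 set differed by -0.34 and -0.39, and the second Nars set by -0.20 and 0.29. For Qars the sets disagreed, since the one used gave 0.05 and another 0.54 at 24 h. The sets of Farsa disagreed as well, at 0.38 for the one used and -0.03 and -0.10 for the others at 24 h. Those others were dim, with mean levels of 2.92 and 3.29 against 6.36 for the one used.

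Some genes of the cytosolic translation machinery were also higher in spheres. Of 19 tested initiation and elongation factors and their regulators, 8 were called higher and 0 lower at 24 h with a median of 0.12, and 5 higher and 0 lower at 48 h with a median of 0.12, where 15.8% and 15.2% of all tested genes were called higher. The 24 h median was 0.30 without the third in-sphere 24 h array. Eif4ebp1, the repressor of the cap-binding protein and an ATF4 target, was 1.12 ± 0.13 higher at 24 h and 1.02 ± 0.13 at 48 h (limma adjusted p = 8.84e-05 and 0.000107), and the cap-binding protein gene Eif4e was 0.76 ± 0.19 higher at 24 h (0.0104). The initiation factor subunit Eif3b was 0.62 ± 0.13 higher at 24 h (0.00342), and at 48 h it differed by 0.08. The count of 8 was 4 without the first in-sphere 24 h array, 4 without the third outside 24 h array and 3 with arrays centred on their medians. The count of 5 was 3 without the first in-sphere or the third outside 48 h array.

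A list of mitochondrial gene expression held translation factors, tRNA-modifying enzymes and a few genes of mitochondrial transcription and mRNA stability. Of 18 tested, 1 was called higher and 0 lower at 24 h (median 0.10), and 0 higher and 7 lower at 48 h (median -0.28, and -0.16 with arrays centred on their medians), where 15.8% of all tested genes were higher at 24 h and 22.3% lower at 48 h. The 24 h median was 0.04 without the first in-sphere 24 h array and 0.00 without the second outside 24 h array. The 24 h gene was Tufm, the mitochondrial elongation factor, at 0.37 ± 0.11 (limma adjusted p = 0.0258), which lost its call without the first or the third in-sphere 24 h array (0.0807 and 0.0523) or the second or the third outside 24 h array (0.104 and 0.0577). Among those lower at 48 h were Qrsl1 at -1.21 ± 0.28 and Gatc at -0.68 ± 0.18 (limma adjusted p = 0.00492 and 0.0101), subunits of the amidotransferase that finishes glutamine tRNA in the organelle, and Lrpprc, which stabilises mitochondrial mRNA, at -0.68 ± 0.18 (0.01). The 7 also held Polrmt and Tfb2m, of mitochondrial transcription, at -0.52 ± 0.12 and -0.58 ± 0.19 (limma adjusted p = 0.0045 and 0.0269). Tfb2m lost its call without the third in-sphere 48 h array (0.102) or the second or the third outside 48 h array (0.0926 and 0.0622). Leaving out each array gave 5 to 8 genes called lower at 48 h.

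Genes of the amino acid response included some of the larger differences. Of 32 tested genes, 12 were called higher and 2 lower at 24 h with a median of 0.30, where 15.8% and 13.6% of all tested genes were called. At 48 h 11 were higher and 6 lower with a median of 0.10, against 15.2% and 22.3% of all tested genes. In the main fit the shares called lower were below those of all genes. With centred arrays this did not hold at 24 h, where 6 of the 32 were called lower, against 2075 of 12488 tested genes. The 48 h median was 0.01 without the first in-sphere 48 h array, 0.24 without the third and 0.22 with centred arrays. Cth, which makes cysteine, read 6.10, 5.52 and 4.78 in spheres at 24 h and exceeded the filter level on 0 of 3 outside arrays at either time, so that it was at least 6.45-fold higher at 24 h and at least 6.15-fold at 48 h against that level (limma adjusted p = 4.57e-06 and 5.12e-06). Psat1, of serine synthesis, read 7.81, 7.25 and 6.83 in spheres and 5.00, 5.36 and 4.92 outside at 24 h, and was 2.20 ± 0.21 higher at 24 h and 2.37 ± 0.21 at 48 h (1.96e-05 and 7.82e-06). Phgdh, the first enzyme of that pathway, was 1.81 ± 0.15 and 1.42 ± 0.15 higher, and Slc7a5, an importer of large neutral amino acids, 1.65 ± 0.18 and 1.86 ± 0.18 higher at 24 h and 48 h.

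The gene for ATF4 itself was not among those called. Its mRNA differed by 0.07 ± 0.12 at 24 h and 0.08 ± 0.12 at 48 h (limma adjusted p = 0.747 and 0.664). Asns, which makes asparagine, differed by 0.39 ± 0.15 and -0.09, and Trib3, a feedback inhibitor of ATF4, by 0.39 ± 0.26 and -0.06, none of them called. Chac1, which degrades glutathione, fell by 0.66 at 24 h and by 1.00 at 48 h (limma adjusted p = 0.00292 and 0.000118), and Ddit3, which encodes the stress factor CHOP, fell by 0.73 at 48 h (0.0082). The genes Atf5, Cebpg, Eif2ak3 and Slc7a11 were also called lower at 48 h, but without the second outside 48 h array Slc7a11 (limma adjusted p = 0.0572) and Eif2ak3 (0.0538) were not. With the mean of its probe sets Eif2ak3 differed by -0.17 (0.268). The 24 h count of 2 lower was 4 with the replicate block, 4 without the third in-sphere 24 h array, 5 without the third in-sphere 48 h array and 6 with centred arrays.

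Most MYC and nucleolar genes were higher in spheres. Of 18 tested, 15 were called higher and 0 lower at 24 h with a median of 0.76, and 14 higher and 0 lower at 48 h with a median of 0.71, where 15.8% and 15.2% of all tested genes were called higher. Leaving out each array gave 12 to 15 at 24 h and 12 to 14 at 48 h. Myc itself was 1.20 ± 0.22 higher at 24 h and 0.88 ± 0.22 at 48 h (limma adjusted p = 0.00145 and 0.00725). Dkc1, which modifies ribosomal RNA, was 1.59 ± 0.14 higher at 24 h and 1.61 ± 0.14 at 48 h, and Srm, of spermidine synthesis, 1.44 ± 0.10 and 1.08 ± 0.10. Nop58, a core protein of small nucleolar RNPs, was 1.18 ± 0.14 and 1.26 ± 0.14 higher.

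**Figure D4:**
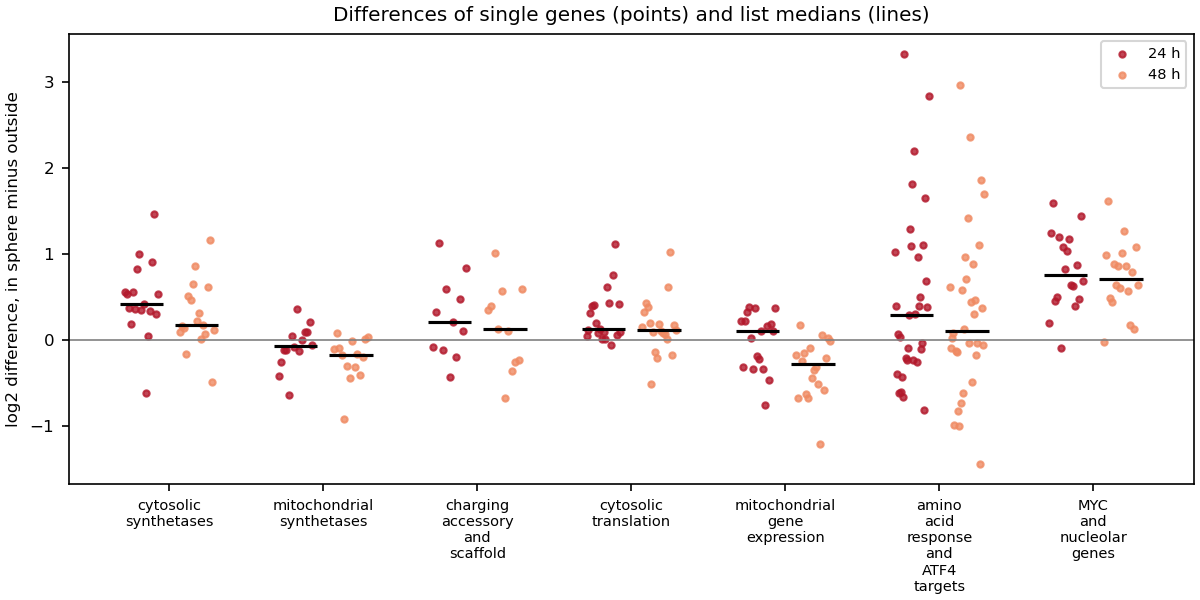
Log2 differences, in-sphere minus outside, of the tested genes of each list at 24 h and 48 h, with each gene as a point and the median of the list as a line. The list of mitochondrial gene expression holds translation and transcription genes. Medians of cytosolic synthetases are 0.42 and 0.18, those of mitochondrial synthetases -0.07 and -0.17, and those of MYC and nucleolar genes 0.76 and 0.71.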

How the data were processed

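The authors deposited log2 expression values, 1 per probe set. They came from RMA, run in Affymetrix Expression Console 1.1 according to what the submitters' processing notes list, and base 2 was read from the span of the numbers. RMA corrects background, quantile-normalises arrays and summarises probes, which compresses the differences of dim probe sets. Raw scans were not analysed here. There were 45141 probe sets and 0 gaps, and no genome build is given in the sources used here. For arrays, the number of samples limits the precision.

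The platform annotation gave 28898 probe sets a single symbol, 551 several and 15692 none. Gene identifiers matched the RefSeq table for 28689 of them and changed 0 symbols. For each gene the probe set with the highest mean was kept. A group-means model was fitted with limma 3.58.1 in R 4.3.3 (lmFit, contrasts.fit, eBayes), with 8 residual and 4.09 prior degrees of freedom. Contrasts were in-sphere minus outside at each time, 48 h minus 24 h in each place, and the change of the difference. The fit was tested on simulated data with known changes before use.

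The synthetase genes and the gene lists were chosen with earlier results of these data known. Per-array values are given for the 8 cytosolic genes with the largest absolute differences, for every synthetase gene that was called, and for a few others chosen after their values were seen. Promoter motifs were likewise searched with the results known. Replicate numbers were read as pairing samples, since each replicate was an independent experiment, per the series' design text. The main fit held no replicate term, so its SE and p-values leave the pairing out, and the replicate block was an alternative. Same-numbered samples had deviations from group means that correlated at 0.02 to 0.47 over 18 comparisons, 12 of them above 0.1. In-sphere and outside samples of the same time correlated at 0.02 to 0.12, and outside samples at 24 h and 48 h at 0.42 to 0.47. Alternatives were the replicate block, each array left out, no filter and a stricter one at the 60th percentile, the mean of all probe sets, array weights, a trended and robust prior, centring on array medians, only the arrays compared, and cytosolic genes without Gars and Kars.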

Additional observations from a re-analysis of the deposited data

How the results depend on the processing

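The gap between the cytosolic and mitochondrial medians kept its direction under all 21 alternatives at each time, at 0.37 to 0.55 at 24 h and 0.30 to 0.42 at 48 h. Calls of Vars, Kars, Sars, Iars and Gars at both times, of Aars at 24 h and of Hars2 at 48 h held under all 20 alternatives run for single genes. No call reversed, but the mitochondrial median at 24 h, -0.07, was 0.03 without the third outside 24 h array, 0.03 with the mean of probe sets and 0.01 with array weights. Leaving out each array gave 6 to 11 cytosolic genes called higher at 24 h and 5 to 7 at 48 h, and 0 to 1 called lower at 24 h. For mitochondrial genes it gave 0 to 1 higher and 0 to 2 lower at 24 h, and 1 to 3 lower at 48 h. The loss of the cytosolic lower call came without the third outside 24 h array, and the mitochondrial lower count was 0 without the first in-sphere 24 h array. With array weights 1 mitochondrial gene (Nars2) was called higher at 24 h and 2 lower (Hars2 and Aars2), and 2 lower at 48 h (Hars2 and Sars2). With only the arrays compared Nars2 was the 1 called higher, and with centred arrays 2 were lower at 24 h (Hars2 and Aars2). The cause of these moves was not tested.

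With the replicate block, 11 cytosolic genes were called higher at 24 h, against 10 without it, as Lars was added, and 6 at 48 h. It changed no other call of a synthetase gene. Over all tested genes, 1904 were higher and 2781 lower at 48 h (40.6% of calls higher), and with centred arrays 2286 and 2163 (51.4%). With 3 experiments in a group, differences of dim genes such as Sars2 and Mars2 were hard to measure.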
